A study of Mus musculus with 5 samples.

Results

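Leukocytes leave the blood by a sequence of adhesive contacts with the endothelium, and 10 genes of these contacts were followed across the cell types of the atherosclerotic mouse aorta. Icam1, Icam2, Vcam1, Pecam1 and F11r encode immunoglobulin-family adhesion molecules, Selp and Sele encode the endothelial selectins, and Selplg, Itgb2 and Itga4 encode the selectin ligand and 2 integrin subunits that leukocytes carry. The 10 genes were taken by name from the 16498 genes of the single-cell table, and all 10 were found in it. The rule that chose them names genes and uses no measured value, but it was set with earlier results of these data known.

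The study asked how loss of Oasl1, an interferon-induced gene of the oligoadenylate synthetase-like family, affects atherosclerosis and the aortic endothelium. Live cells of the aortic arch were profiled by droplet-based 3′ RNA sequencing in 5 libraries, each from pooled mice, and 18260 cells are in the table. Apoe-/- mice gave 2 libraries (4078 and 4338 cells), and mice labelled Oasl1-/-Apoe-/- gave 3 (3404, 3212 and 3228 cells). Both groups lacked Apoe, the apolipoprotein that clears cholesterol-rich particles, so that both develop plaques, and both were kept on normal chow for 28 weeks. Both genes were deleted in the whole animal, so a difference in 1 cell type may come from any other. The age of the mice is given in the sources used here only through the time on the diet, and whether the libraries of a group came from separate pools of mice is not certain, so p-values measure the spread between these libraries.

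Oasl1 transcripts did not check the labels. In macrophages they stood at 0.0700 and 0.0748 UMIs per 10000 UMIs of the cell (CP10K) in the Apoe-/- libraries and at 0.698, 0.580 and 0.674 CP10K in the libraries labelled Oasl1-/-Apoe-/-. In endothelial cells they stood at 0.0253 and 0 CP10K and at 0.0432, 0.0286 and 0.0459 CP10K, so few were seen in either group. By the study's methods the deletion took the promoter region and exon 2. A 3′ tag outside the deleted part can be counted only if that part of the gene is still transcribed. Neither this nor the place of the tags was tested, so the groups are called by their labels throughout. A UMI is the barcode of a single captured RNA molecule. The median number of UMIs per cell lay between 4495 and 5187 in the 5 libraries, and 165 of 18094 cell barcodes occurred in more than 1 library, at most 2.12% of the cells of a library. Cell types were rebuilt from marker genes that include none of the 10, and the endothelial markers summed to 53.8 to 58.9 CP10K in the 1483 endothelial cells against at most 0.0593 CP10K in the 9688 smooth muscle cells.

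Selectins catch flowing leukocytes through sugar-bearing ligands such as the product of Selplg, and the rolling cells then stop when their integrins bind the immunoglobulin-family molecules ICAM and VCAM. PECAM1 and F11R, also called JAM-A, sit at the junctions between endothelial cells, through which leukocytes cross. In atherosclerosis, endothelium at bends of the arch is known to carry more of these molecules, several of which are transcribed on inflammatory signals through NF-κB.

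Promoter windows from 250 bases before to 50 bases after the RefSeq start (GRCm38.p6) were found for 5 of the 10 genes: Icam1, Sele, Selp, F11r and Itga4. The stretches shown belong to the members best known as inducible by inflammatory signals. Capitals mark a match to the κB-type sequence GGAAATTCC for Icam1 and to TATAAA for Sele.
Icam1: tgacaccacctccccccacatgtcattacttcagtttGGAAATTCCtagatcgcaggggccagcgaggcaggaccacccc
Sele: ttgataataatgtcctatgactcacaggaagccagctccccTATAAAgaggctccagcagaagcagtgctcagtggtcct
The Icam1 stretch lies at chr9:21015750-21015829 on the forward strand, and its match begins 153 bases before the start. GGAAATTCC was held by 0.317% of 32841 promoter windows of the same length, searched on both strands. The Sele stretch lies at chr1:164048144-164048223 on the forward strand, with the match 49 bases before the start, and TATAAA was held by 13.6% of all windows. Other κB-type strings and a string of the interferon-stimulated response element, also searched on both strands, were not found in the 5 windows. The κB-type strings were held by 1.63% and 0.0974% of all windows and the response element string by 3.44%. A match is a string of letters and not a measured site.

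On GRCm38 (mm10), by the GENCODE annotation, the selectin genes are neighbours on chromosome 1, with Sele at 164048234 to 164057677 and Selp at 164115264 to 164150026. Icam2 and Pecam1 both lie on chromosome 11, at 106377656 to 106388075 and at 106654217 to 106750628. Icam1 lies on chromosome 9 at 21015985 to 21028817 and Vcam1 on chromosome 3 at 116109949 to 116129688. Selplg spans 113818536 to 113832644 on chromosome 5, 1.09 Mb from Oasl1.

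The first question was which cells carried each transcript. Levels are given as the mean CP10K over the cells of a type, and then as the mean ± SD over the 5 libraries. Counts at the 3′ end are not scaled to gene length, so each gene was compared only with itself. Of the vessel-side genes, Pecam1 stood at 24.0 ± 0.994 CP10K (SD, n = 5) in endothelial cells, and the next of 13 cell groups, an unnamed cluster led by Saa3 and Itih4, at 0.662 ± 0.165 CP10K. Icam2, the constitutive endothelial ICAM, stood at 6.16 ± 0.574 CP10K in endothelial cells and 0.250 ± 0.124 CP10K in natural killer and T (NK/T) cells. Endothelial cells were 8.12% of all cells and gave 88.9% of the UMIs of Icam2 and 83.8% of those of Pecam1. For both genes the libraries of endothelial cells did not overlap those of the next group.

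Selp, the selectin stored in endothelial granules, was at 2.54 ± 0.210 CP10K in endothelial cells, which held 67.4% of its 2608 UMIs. Most of the rest, 22.6%, came from an unnamed cluster of 696 cells led by Col2a1 and Ibsp, genes of cartilage and bone, with 0.790 ± 0.269 CP10K. In its libraries 8 fibroblast markers summed to 235 to 288 CP10K, 8 smooth muscle markers to 38.1 to 62.4 and 5 cartilage markers to 23.5 to 59.1. Its leading genes therefore do not name its cells. Sele, the selectin made after cytokine stimulation, was rare. Only 225 UMIs were counted in all cells, 133 of them (59.1%) in endothelial cells and 63 in the Col2a1 and Ibsp cluster, and the libraries of these groups overlapped. F11r was at 2.15 ± 0.155 CP10K in endothelial cells and at 0.407 ± 0.175 CP10K in macrophages.

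Icam1 and Vcam1 were spread over more cell groups. Endothelial cells gave 44.2% of the Icam1 UMIs, leukocytes 22.6% and macrophages alone 15.2%. The unnamed clusters together gave 24.0%, with 13.9% of all Icam1 UMIs in the Col2a1 and Ibsp cluster and 8.05% in the Saa3 and Itih4 cluster. Icam1 levels overlapped between endothelial cells (5.80 ± 0.811 CP10K) and the next group, neutrophils, which had few cells and ranged from 1.18 to 8.64 CP10K. Vcam1 was not highest in endothelium. The Col2a1 and Ibsp cluster stood at 15.1 ± 2.40 CP10K, the Saa3 and Itih4 cluster at 11.5 ± 1.41 and endothelial cells at 10.7 ± 1.11, and the ranges of neighbours in this order overlapped. These unnamed clusters held 42.2% and 18.8% of the 28746 Vcam1 UMIs, against 24.0% in the endothelium and 4.82% in smooth muscle cells. In the Saa3 and Itih4 cluster smooth muscle markers summed to 242 to 291 CP10K and fibroblast markers to 71.7 to 97.4. Smooth muscle cells had 547 to 613 CP10K of smooth muscle markers, so their Vcam1 share depends on where this cluster is counted.

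The leukocyte-side genes showed the reverse distribution. All leukocyte types together gave 95.4% of the UMIs of Selplg, 94.9% of those of Itgb2 and 80.7% of those of Itga4. Selplg, the main ligand of the selectins, was at 6.87 ± 0.884 CP10K in NK/T cells, above the 4.51 ± 0.757 CP10K of dendritic cells with no overlap of libraries. Itgb2, the β subunit of the integrins that bind ICAM1, was at 2.90 ± 0.337 CP10K in monocytes and 2.29 ± 0.0502 in macrophages. Itga4, the α subunit that pairs to bind VCAM1, was at 0.853 ± 0.207 CP10K in dendritic cells and 0.828 ± 0.0745 in NK/T cells, with overlapping libraries. In endothelial cells these genes were at 0.0327, 0.0379 and 0.00409 CP10K.

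**Figure D1:**
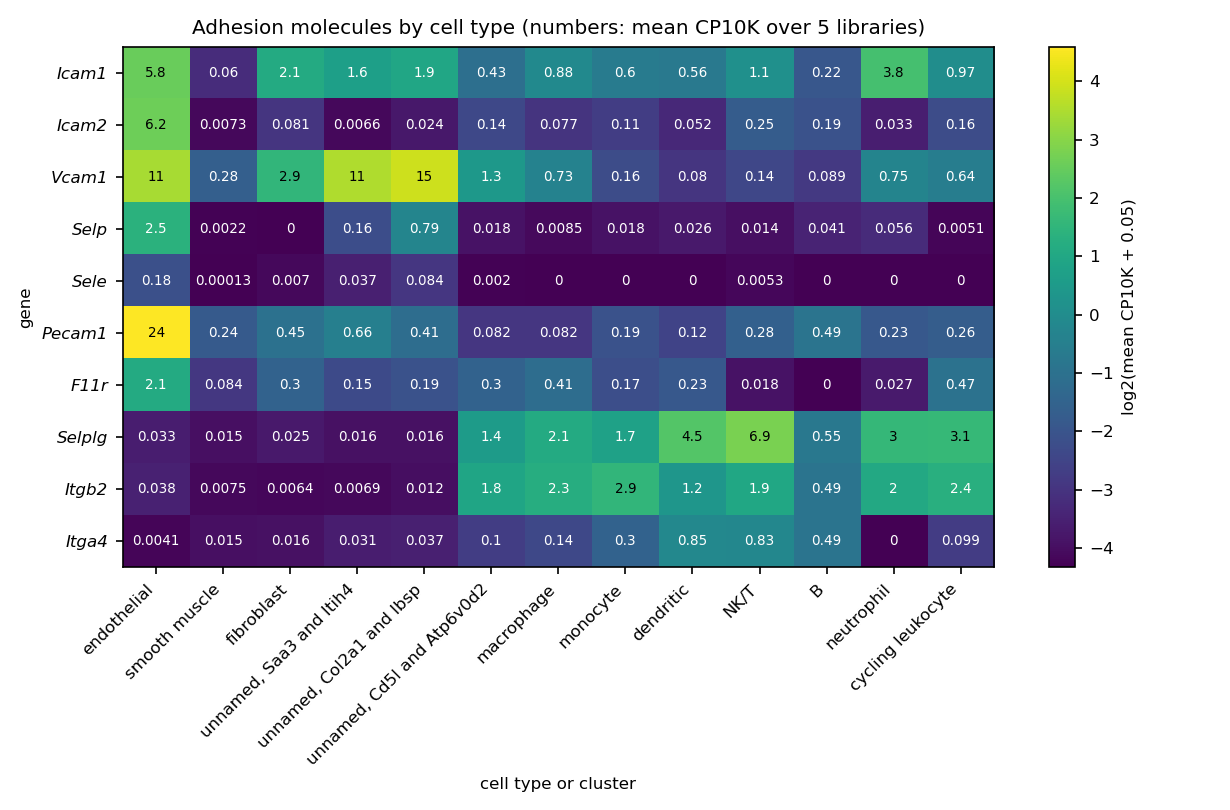
Mean CP10K of the 10 genes (rows) in each cell group (columns), as the mean over the 5 libraries, on a log colour scale. Pecam1 and Icam2 were highest in endothelial cells (24.0 and 6.16 CP10K), Vcam1 also in the clusters led by Col2a1 and Saa3 (15.1 and 11.5 CP10K), and Selplg and Itgb2 in the leukocyte groups.

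The genes whose levels followed each member most closely were sought by Pearson correlation over 13 cell groups among 5560 genes. These groups share libraries and depth, so the values only describe these levels. Closest to Sele were Ddah1 (r = 0.98) and Selp (r = 0.97), and closest to Selp were Ddah1 and Fgfr3 (0.96 and 0.94). Sele had only 225 UMIs and was at 0 CP10K in macrophages, monocytes, dendritic cells, B cells, neutrophils and cycling leukocytes. Its r therefore rests on few groups. Pecam1 was followed by Myzap and Tmem252, Icam2 by Bmx and Egfl7, and F11r by Acvrl1 and Mapk3, with r between 0.91 and 0.96. For Vcam1 they were Iigp1 and Mmp2 (0.92 and 0.90), and for Icam1 B4galt1 and 9930111J21Rik2 (0.85 and 0.82). Of the leukocyte-side genes, Selplg was followed by Rgs1 and Arhgap9, Itgb2 by Susd3 and Vav1, and Itga4 by Itgb7, which encodes a β subunit it pairs with, and Gpr183. The lowest of these r was 0.95, for Gpr183.

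The main question was whether adhesion molecules were higher in the endothelium of mice labelled Oasl1-/-Apoe-/-. No member passed the test in endothelial cells: Icam1 and Icam2 were on average lower in the libraries labelled Oasl1-/-Apoe-/-, and Vcam1 and Sele were on average higher with overlapping libraries. Values per library are given here and below for Apoe-/- replicates 1 and 2 and then for replicates 1, 2 and 3 labelled Oasl1-/-Apoe-/-. With only 10 ways to split 5 libraries into 2 and 3, groups without overlap are common even where nothing differs. The share of all genes without overlap was not counted. Differences are log2(mean CP10K + 0.05), labelled Oasl1-/-Apoe-/- minus Apoe-/-, tested with limma over all genes with a mean of at least 0.05 CP10K. Under a Benjamini-Hochberg adjusted p of 0.05, 0 of the 7 members tested passed, beside 3.16% of 9483 genes. The median log2 difference of the members was -0.06 and that of all genes -0.02. At an unadjusted p under 0.05 there were 2 members (Icam1 and Icam2), beside 1120 of the 9483 genes. By limma-voom on summed UMIs 2 members were called (Icam1, lower, and Vcam1, higher), and its share over all genes is not reported here.

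Icam1 stood at 6.37 and 6.74 CP10K and at 5.82, 4.68 and 5.38 CP10K in endothelial cells. The 3 libraries labelled Oasl1-/-Apoe-/- all lay below both Apoe-/- libraries. The log2 difference was -0.31 (SE 0.10, limma adjusted p = 0.073), and by limma-voom it was -0.38 (adjusted p = 0.026). Icam2 stood at 7.05 and 6.34 CP10K and at 5.84, 5.98 and 5.57 CP10K, again without overlap, with a difference of -0.21 (SE 0.09, limma adjusted p = 0.36).

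Vcam1 stood at 10.2 and 10.3 CP10K and at 9.53, 12.3 and 11.3 CP10K. The libraries labelled Oasl1-/-Apoe-/- lay on both sides of the Apoe-/- values. The log2 difference was 0.11 (SE 0.09, 95% interval -0.07 to 0.28, limma adjusted p = 0.72), limma-voom gave 0.37 (adjusted p = 0.024), and with the sub-clusters carrying markers of other types left out it was -0.01.

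Both selectins were on the same side of the threshold. Selp stood at 2.67 and 2.76 CP10K and at 2.21, 2.55 and 2.53 CP10K (log2 difference -0.16, limma adjusted p = 0.68). Sele stood at 0.0980 and 0.162 CP10K and at 0.103, 0.209 and 0.311 CP10K (0.45, SE 0.31, limma adjusted p = 0.63). The 95% interval for Sele, which had 133 UMIs in these cells, ran from -0.17 to 1.07, and its difference ranged from 0.17 to 0.79 when a library was left out.

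The junction genes did not pass either. Pecam1 stood at 23.9 and 25.2 CP10K and at 22.7, 23.5 and 24.7 CP10K, a log2 difference of -0.06 with a 95% interval from -0.19 to 0.08 (limma adjusted p = 0.84). F11r stood at 2.09 and 1.96 CP10K and at 2.22, 2.37 and 2.10 CP10K (0.14, limma adjusted p = 0.75), and the lowest of the latter lay just above the highest Apoe-/- library.

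**Figure D2:**
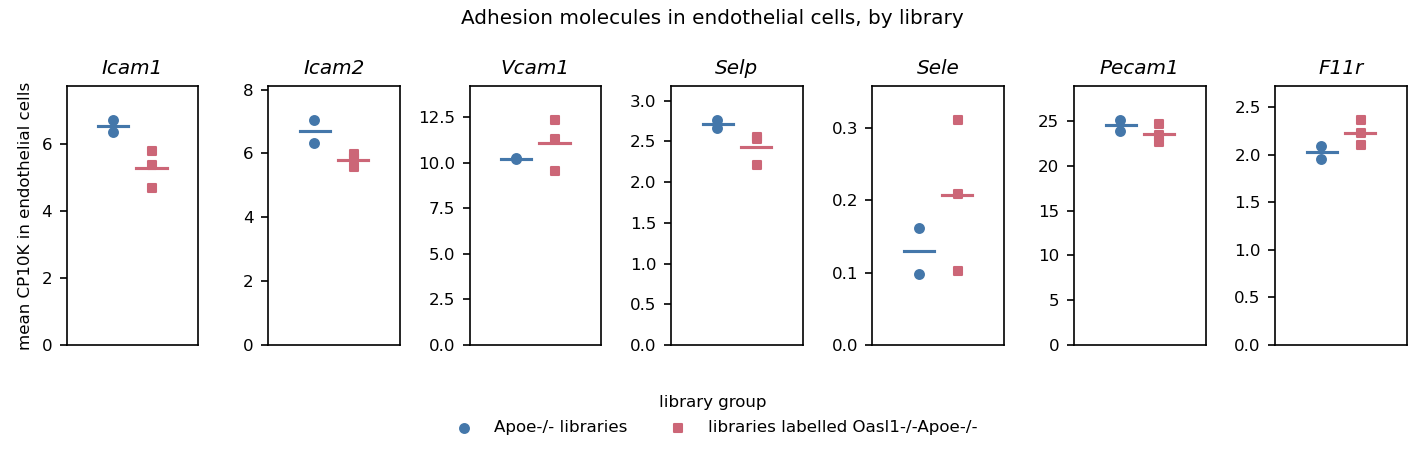
Mean CP10K in endothelial cells of each library (points) for the 7 members with a mean of at least 0.05 CP10K, with the mean of each group as a line. The Icam1 points of the libraries labelled Oasl1-/-Apoe-/- (4.68 to 5.82 CP10K) lie below those of the Apoe-/- libraries (6.37 and 6.74 CP10K), and the Vcam1 points overlap.

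Endothelial libraries differed in other ways that run with the group. Median UMIs per endothelial cell were 2797 to 2831 in the Apoe-/- libraries and 3421 to 3632 in the others. Macrophage markers summed to 0.628 to 1.23 CP10K against 2.33 to 3.22, with 5 of 9 markers higher without overlap, and fibroblast markers to 8.96 to 9.62 against 14.3 to 22.4 CP10K, with 5 of 8 higher. Erythroid markers summed to 6.88 to 36.4 against 0.402 to 0.622 CP10K, with all 5 lower. The part of these in the differences was not tested, beyond leaving out the endothelial sub-clusters with markers of fibroblasts, macrophages or smooth muscle cells, which gave -0.28 for Icam1.

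Shares of endothelial cells with at least 1 UMI depend on depth, so they were also taken after thinning every cell to 1000 UMIs, which left out 25 Apoe-/- cells and 21 of the others. Icam1 was seen in 62.4% and 62.5% of endothelial cells (means of libraries), and after thinning in 38.6% and 30.4%, with 36.6% and 40.6% against 31.3%, 30.5% and 29.4% in the libraries. An exact permutation test of the thinned share, two-sided as the doubled smaller tail, gave p = 0.2, which is the smallest p it can give with 2 against 3 libraries. Vcam1 was seen in 73.7% and 76.5% of cells, thinned 49.3% and 50.1%. Selp was seen in 44.2% and 44.7%, thinned 20.9% and 19.4%. Sele was seen in 4.86% and 8.05%, thinned 1.72% and 2.10%. Adjusted over the 4 genes, the exact permutation p was between 0.8 and 1 for all 8 shares. Smooth muscle cells, with a deeper median of 4633 to 5146 UMIs, showed a Selp UMI in 0.108% and 0.119% of cells and an Icam1 UMI in 1.70% and 1.86%, so the endothelial shares lay far above that level.

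In single endothelial cells the molecules were often seen together. Of 1483 cells, 759 (51.2%) had UMIs of both Icam1 and Vcam1, and 13.6% had neither. Sele was seen in 94 cells (6.34%), of which 88 also had Vcam1, 85 Icam1 and 75 Selp. Deeper cells have more of every transcript, so these counts describe detection.

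Endothelial cells were divided into 8 sub-clusters without the members among the variable genes. Since the sub-clusters come from the same cells, their levels are given with no test. Icam1 varied widely: the sub-cluster led by Gadd45b and Rnd1, 2 early-response genes, had 12.1 ± 2.04 CP10K (SD, n = 5), and that led by Nppc and Ptn had 2.11 ± 0.541. Icam1 ranked as number 5 among the leading genes of the former. In these cells it stood at 14.3 and 13.8 CP10K in the Apoe-/- libraries and at 11.1, 9.24 and 12.1 CP10K in those labelled Oasl1-/-Apoe-/-. The Apoe-/- libraries were again higher without overlap.

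A sub-cluster of 109 cells led by Sprr1a and Mmp3, whose cells had a median of 8984 UMIs and fibroblast markers, was low in Pecam1 (8.43 ± 1.23 CP10K) and Icam2 (1.68 ± 0.602) and had Vcam1 at 17.0 ± 5.10 and Selp at 4.45 ± 1.04 CP10K. It made up 3.85% and 2.55% of endothelial cells in the Apoe-/- libraries and 8.91%, 14.8% and 12.4% in the others. Its Vcam1 levels were 12.8 and 11.3 CP10K against 21.6, 16.5 and 22.7 CP10K. Selp in it went the other way, with 5.57 and 5.30 against 3.79, 4.52 and 3.07 CP10K. The sub-cluster led by Fjx1 and Serpina3g had Selp at 4.20 ± 0.558 and made up 11.3% and 10.2% of endothelial cells in the Apoe-/- libraries and 21.9%, 14.8% and 23.3% in the others, while that led by Hba-a1 and Hba-a2, haemoglobin genes of red cells, had Selp at 1.19 ± 0.381 and went from a mean share of 22.1% to 10.1%. With every library reweighted to the same sub-cluster shares, the Icam1 difference was -0.31 and that of Icam2 -0.04.

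**Figure D3:**
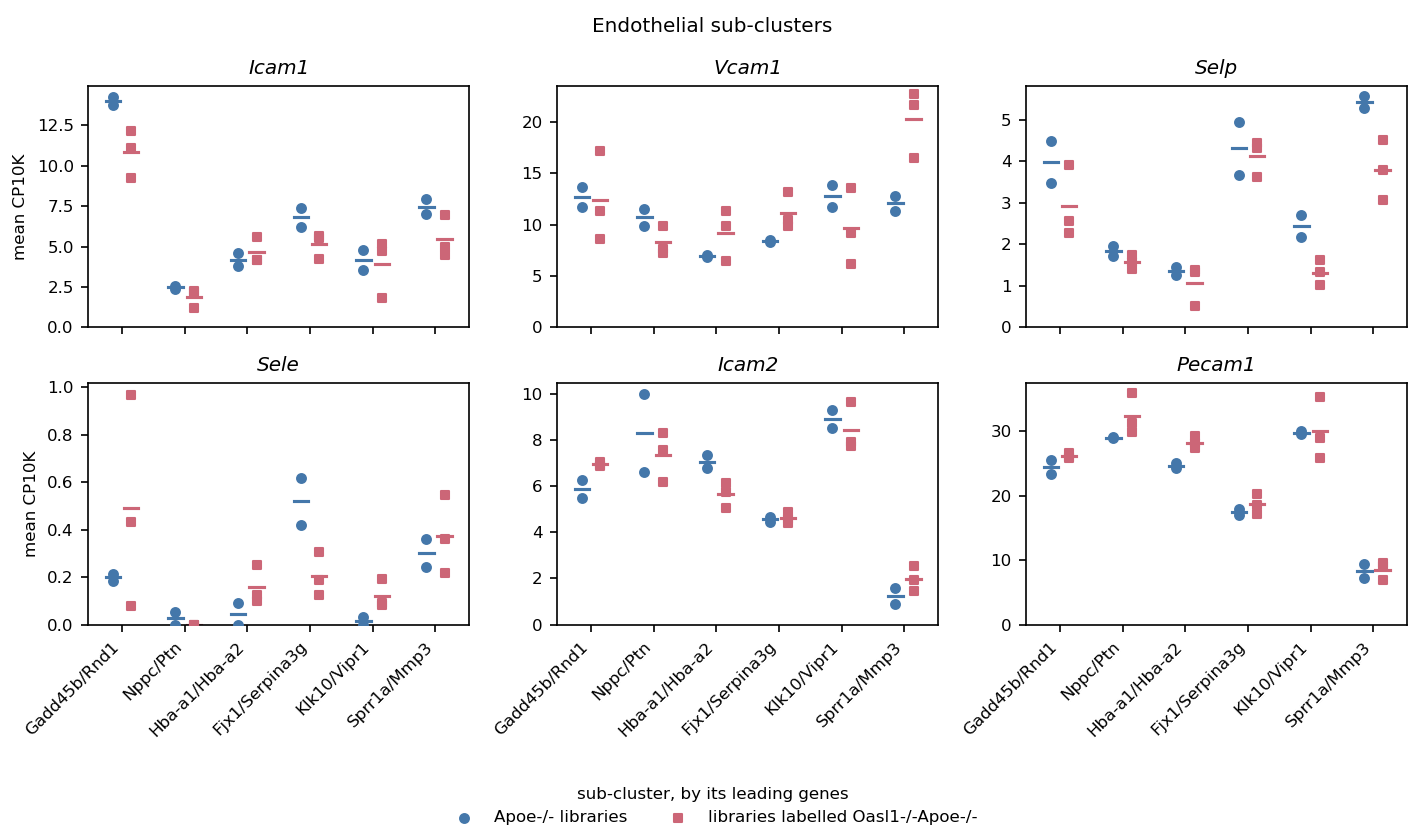
Mean CP10K of Icam1, Vcam1, Selp, Sele, Icam2 and Pecam1 in the 6 endothelial sub-clusters of at least 100 cells, with a point for each library, a colour for each group and group means as lines. Icam1 was at 12.1 CP10K in the sub-cluster led by Gadd45b and Rnd1 and at 2.11 CP10K in that led by Nppc and Ptn, and Pecam1 and Icam2 were lower in the sub-cluster led by Sprr1a and Mmp3 (8.43 and 1.68 CP10K) than in the other 5.

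In smooth muscle cells, the contractile cells of the media, only Vcam1 rose. It stood at 0.195 and 0.227 CP10K and at 0.308, 0.339 and 0.313 CP10K, without overlap, and the log2 difference was 0.51 (SE 0.09, limma adjusted p = 0.000686). Thus 1 of 4 members tested passed, beside 6.71% of 8996 genes (4.38% higher and 2.33% lower), and the medians were 0.10 for the members and 0.01 for all genes. Icam1 (0.0397 and 0.0644 against 0.0752, 0.0687 and 0.0524 CP10K) overlapped between the groups (0.18, limma adjusted p = 0.43). Leukocyte markers in these cells summed to 0.154 to 0.159 against 0.322 to 0.345 CP10K, with 5 of 8 markers higher without overlap. Endothelial markers summed to 0.0271 to 0.0320 against 0.0385 to 0.0593 CP10K (3 of 8 higher) and cartilage markers to 0.201 to 0.204 against 0.210 to 0.270 CP10K (1 of 5 higher), while smooth muscle markers summed to 575 to 613 against 547 to 554 CP10K (4 of 8 lower). The part of these markers in the Vcam1 difference was not tested.

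In smooth muscle Vcam1 stood at 0.687 ± 0.146 CP10K in a cluster led by Flnc and Lsmem1. This cluster made up 25.1% and 21.8% of smooth muscle cells in the Apoe-/- libraries and 28.8%, 31.7% and 32.5% in the others. With the cluster shares held equal, the Vcam1 difference was 0.28 (limma adjusted p = 0.092), so the call was lost. Taking cells instead by markers in each cell widened the group to 10854 cells, of which 9649 were also smooth muscle cells by cluster. The clusters of the added cells were not examined. The Vcam1 difference was then 1.43 (limma adjusted p = 1.47e-08), and Icam1 and Selp passed as well, both at 0.73. The share of all genes that passed with this gate is not reported here.

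The difference of Icam1 between the groups was compared between endothelial and smooth muscle cells within each library. The difference of differences was -0.49 (SE 0.19, limma adjusted p = 0.55) for Icam1 and -0.40 (SE 0.17, limma adjusted p = 0.59) for Vcam1. Of 4 members tested 0 passed, beside 0.00% of 8207 genes, and 1 member (Icam1) and 704 genes had an unadjusted p under 0.05 by limma. Between endothelial cells and macrophages, 0 of 5 members passed beside 0.126% of 7165 genes. F11r (-0.99, SE 0.20, limma adjusted p = 0.18) and Vcam1 (0.63, SE 0.21, limma adjusted p = 0.28) were the 2 members with an unadjusted p under 0.05, beside 979 of the 7165 genes. Both members passed with a pseudocount of 0.5 CP10K, for which the share over all genes is not reported here. Thus a difference between cell types was not shown with the pseudocount of 0.05 CP10K used throughout. The limma fit here left out the trend of spread with level that the main tests within cell types used. Few of all genes passed it.

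In macrophages, the main leukocyte of the plaque, Selplg and F11r rose and Vcam1 fell. That is 3 of 8 members tested, beside 17.2% of 7906 genes, a count for which 8.69% of genes were higher and 8.47% lower. The median log2 difference was 0.15 for the members and -0.01 for all genes.

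Selplg stood at 1.63 and 1.54 CP10K and at 2.67, 2.39 and 2.41 CP10K in macrophages. The groups were apart, with a log2 difference of 0.63 (SE 0.08, limma adjusted p = 3.77e-05). F11r stood at 0.270 and 0.172 CP10K and at 0.507, 0.568 and 0.519 CP10K, also apart, with a difference of 1.12 (SE 0.15, limma adjusted p = 7.34e-05).

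Vcam1 stood at 0.737 and 1.07 CP10K and at 0.561, 0.645 and 0.614 CP10K, with a log2 difference of -0.52 (SE 0.13, limma adjusted p = 0.014). This call depended on single libraries and on how cells were chosen: without Apoe-/- replicate 2 the difference was -0.26 (limma adjusted p = 0.13), and without replicate 1 labelled Oasl1-/-Apoe-/- it was -0.47 (limma adjusted p = 0.061). With the gate on markers in each cell it was -0.46 (limma adjusted p = 0.065). By limma-voom the call was kept (-0.47, adjusted p = 0.023). Endothelial markers in macrophages summed to 0.187 to 0.213 against 0.126 to 0.160 CP10K, with 3 of 8 lower and 1 higher without overlap. Smooth muscle markers summed to 3.08 to 5.14 against 1.78 to 2.78 CP10K, with 6 of 8 lower. The part of these markers in the Vcam1 difference was not tested.

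Itgb2 in macrophages was at 2.28 and 2.35 CP10K and at 2.31, 2.30 and 2.21 CP10K, a difference of -0.02 with a 95% interval from -0.18 to 0.13. Icam1, Icam2, Pecam1 and Itga4 also had adjusted p values above the threshold in these cells, but with the gate on markers in each cell Icam2 passed (0.78, SE 0.17, limma adjusted p = 0.0051).

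Macrophages formed 2 clusters whose shares differed strongly between the groups. The cluster led by Trem2 and Gpnmb, genes of lipid-laden macrophages, held 79.5% of the macrophages pooled over the Apoe-/- libraries and 43.1% of those pooled over the others, and the cluster led by the chemokine genes Ccl12 and Ccl8 held 20.5% and 56.9%. F11r was lower in the Trem2 cluster, where it stood at 0.111 and 0.0783 against 0.269, 0.292 and 0.310 CP10K (1.24, limma adjusted p = 0.00011). In the Ccl12 cluster it stood at 0.911 and 0.521 against 0.696, 0.777 and 0.671 CP10K, with overlap (0.04, limma adjusted p = 0.93). With equal cluster shares the F11r difference was 0.39 (limma adjusted p = 0.22), and its call was lost. Vcam1 passed with equal cluster shares (-0.56, limma adjusted p = 0.024) and in the Trem2 cluster alone (-0.60, limma adjusted p = 0.018). In the Ccl12 cluster alone Vcam1 did not pass.

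Selplg kept its call with equal cluster shares, at 0.40 (limma adjusted p = 0.0094). In the Trem2 cluster it stood at 1.52 and 1.35 against 1.86, 1.91 and 1.76 CP10K (0.35, limma adjusted p = 0.032). In the Ccl12 cluster it stood at 2.08 and 2.27 against 3.32, 2.75 and 2.89 CP10K, without overlap (0.45, limma adjusted p = 0.077). Itgb2 in the Ccl12 cluster stood at 1.51 and 1.49 against 2.07, 2.12 and 2.10 CP10K (0.47, limma adjusted p = 0.047), and in the Trem2 cluster the difference was -0.01.

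Selplg lies on the chromosome of the targeted gene, where alleles of the strain that carried the deletion can be kept by linkage. Of 62 genes tested in macrophages within 5 Mb of Oasl1, 16 (25.8%) were past the threshold, 10 of them higher, against 17.2% of all genes. The 16 include Selplg itself. Linkage and loss of Oasl1 cannot be told apart in this design.

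In the other leukocytes Selplg was on average higher in each type but passed in none. In monocytes it stood at 1.39 and 1.10 CP10K and at 2.12, 2.15 and 1.64 CP10K (0.64, SE 0.20, limma adjusted p = 0.087), without overlap. In dendritic cells it stood at 4.16 and 3.42 CP10K and at 4.66, 5.39 and 4.93 CP10K (0.40, limma adjusted p = 0.31), also without overlap. NK/T cells overlapped, with 6.96 and 5.45 CP10K and 6.75, 7.76 and 7.42 CP10K (0.24, limma adjusted p = 0.52).

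By limma, 0 of 8 members passed in monocytes beside 3.52% of genes, 0 of 8 in dendritic cells beside 1.67%, and 0 of 7 in NK/T cells beside 1.72%. Each of these types had 2 members with an unadjusted p under 0.05, beside 1038 of 7666, 894 of 7585 and 971 of 8307 genes. By limma-voom 0 members were called in each. In monocytes the second was F11r, at 0.0511 and 0.0856 CP10K and at 0.371, 0.213 and 0.128 CP10K (1.20, limma adjusted p = 0.19). In dendritic cells it was Vcam1, at 0.236 and 0.140 CP10K against 0.0250 CP10K and 2 libraries listed at 0 (limma adjusted p = 0.067). These rested on 97 to 110 monocytes and 65 to 93 dendritic cells per library.

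Over all 4437 leukocytes together, Selplg and F11r rose, 2 of 8 members beside 12.7% of 8445 genes (7.26% higher and 5.45% lower). Selplg stood at 2.69 and 2.31 CP10K and at 3.51, 3.64 and 3.38 CP10K (0.48, SE 0.08, limma adjusted p = 0.0016). F11r stood at 0.169 and 0.134 CP10K and at 0.356, 0.402 and 0.353 CP10K (1.06, SE 0.13, limma adjusted p = 0.000278). The groups did not overlap for either gene. Itgb2 was at 2.12 and 2.08 CP10K and at 2.17, 2.15 and 2.20 CP10K (0.04, limma adjusted p = 0.71). Macrophages were a larger part of the leukocytes labelled Oasl1-/-Apoe-/-, which enters these values.

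**Figure D4:**
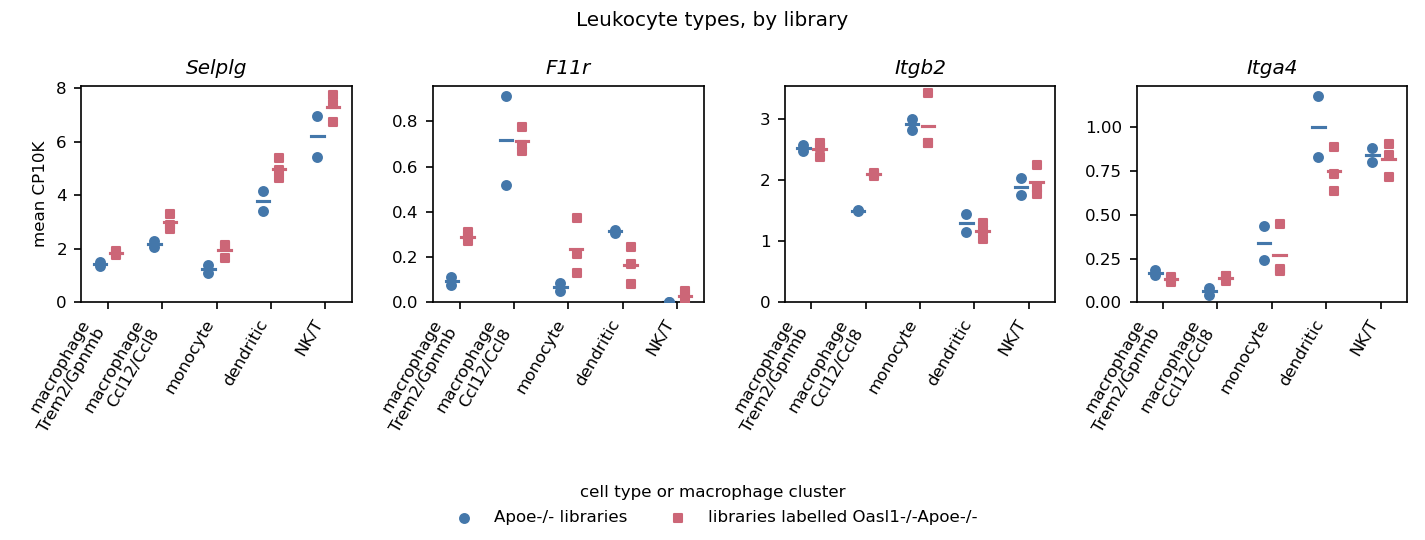
Mean CP10K of Selplg, F11r, Itgb2 and Itga4 in the 2 macrophage clusters and 3 other leukocyte types, with a point for each library and group means as lines. In the Trem2 cluster the Selplg points labelled Oasl1-/-Apoe-/- (1.76 to 1.91 CP10K) lie above the Apoe-/- points (1.35 and 1.52 CP10K), and the Itga4 points of NK/T cells overlap.

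Taken over all cells of the aortic arch, most members differed between the groups. Selplg, Itgb2, Vcam1, Itga4 and F11r rose, and Icam2 and Pecam1 fell. That is 7 of 9 members tested beside 41.1% of 9836 genes (20.5% higher and 20.6% lower), and the make-up of the libraries differed. Leukocytes were 15.8% of cells in the Apoe-/- libraries and 31.5% in the others (means of libraries), smooth muscle cells 65.2% and 42.6%, and endothelial cells 9.30% and 7.12%.

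Selplg stood at 0.478 and 0.396 CP10K over all cells and at 1.18, 1.21 and 1.18 CP10K (log2 difference 1.35, SE 0.07, limma adjusted p = 2.66e-07). Itgb2 stood at 0.408 and 0.359 CP10K and at 0.764, 0.791 and 0.784 CP10K (0.94, limma adjusted p = 1.29e-06). Vcam1 stood at 1.77 and 1.70 CP10K and at 2.66, 2.93 and 2.81 CP10K (0.67, SE 0.05, limma adjusted p = 4.14e-06). The groups were apart for these 3 genes.

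Pecam1 stood at 2.54 and 2.50 CP10K and at 1.92, 2.05 and 1.85 CP10K (-0.37, limma adjusted p = 0.000256). Icam2 stood at 0.713 and 0.602 CP10K and at 0.490, 0.517 and 0.430 CP10K (-0.42, limma adjusted p = 0.0030). Endothelial cells, the source of most UMIs of both, made up the smaller share given above. Itga4 (0.43) and F11r (0.32) also passed. Icam1 (0.905 and 0.922 against 1.06, 0.928 and 0.890 CP10K) had a difference of 0.06 (limma adjusted p = 0.51) and Selp one of -0.15 (limma adjusted p = 0.13), although limma-voom on summed UMIs put both higher and past the threshold, at 0.36 (adjusted p = 0.0016) and 0.31 (adjusted p = 0.027). Icam1 also passed with the mean of the deposited log values (limma adjusted p = 7.26e-06).

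The difference of group means was divided exactly into a part from cell shares and a part from levels within cell groups. Shares made up 99.3% of the difference of Itga4, 87.9% of that of Pecam1, 82.8% of Itgb2, 71.8% of Selplg, 69.7% of Vcam1 and 61.2% of Icam2. For F11r they made up 43.7%, and levels gave the larger part, 0.0466 of 0.0828 CP10K. For Icam1 the parts had opposite signs, 0.211 CP10K from shares and -0.166 CP10K from levels, and endothelial cells gave -0.233 CP10K of the total. For Vcam1, the Col2a1 and Ibsp cluster, which went from 1.24% to 6.02% of cells, gave 0.829 of the 1.07 CP10K, the Saa3 and Itih4 cluster 0.216 and endothelial cells -0.161. With all libraries reweighted to the same cell type shares, Vcam1 (0.20, limma adjusted p = 0.024) and Selplg (0.37, limma adjusted p = 0.0022) passed, and the other 7 did not. The share of all genes that passed after this reweighting is not reported here.

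**Figure D5:**
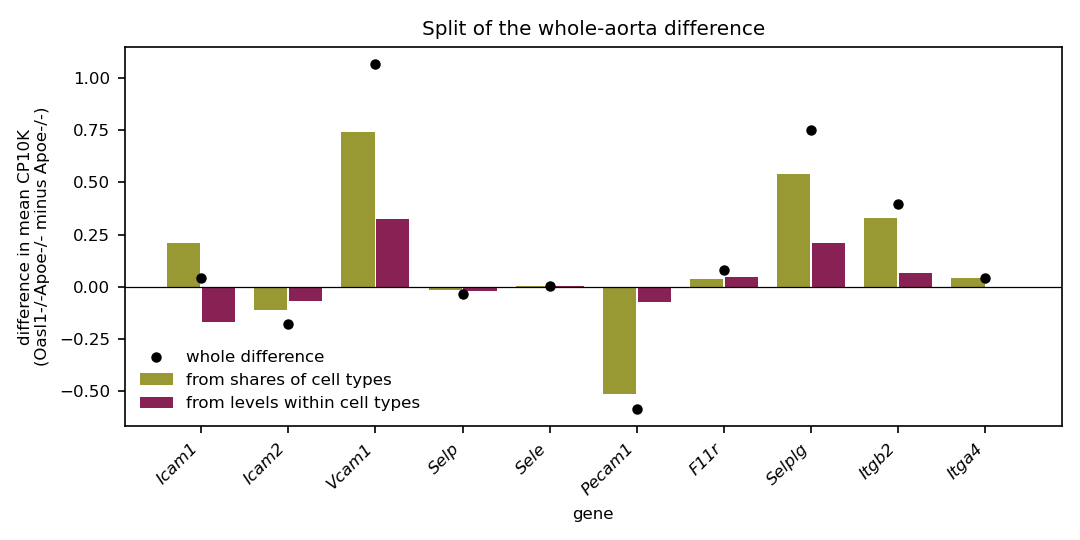
The difference of group means over all cells (labelled Oasl1-/-Apoe-/- minus Apoe-/-, CP10K) for each member, divided into the part from cell type shares and the part from levels within cell types. For Vcam1 shares gave 0.743 and levels 0.323 CP10K, and for Icam1 they gave 0.211 and -0.166 CP10K.

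A list of 49 other genes of leukocyte adhesion (selectin ligands and the enzymes that glycosylate them, integrin subunits, integrin activators, junction proteins, selectin storage and shedding) had 47 in the table. In endothelial cells 36 were tested, 0 rose and 2 fell, beside 2.15% of all genes higher and 1.01% lower. Gcnt1, an enzyme that builds branched O-glycans, stood at 1.37 and 1.18 CP10K and at 0.986, 0.807 and 0.561 CP10K (-0.69, limma adjusted p = 0.012). Cd24a, a surface glycoprotein that P-selectin can bind, stood at 7.59 and 7.08 CP10K and at 5.84, 4.93 and 5.07 CP10K (-0.47, limma adjusted p = 0.000769). The median over the list was -0.02, as over all genes.

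In smooth muscle cells 26 were tested, of which 4 passed beside 6.71% of all genes: Itgb1 (0.18) and Itgav (0.27) rose and Tln1, which couples integrins to actin (-0.29), and Itga5 (-0.28) fell. In macrophages 4 of 30 rose and 4 fell, beside 17.2% of all genes past the threshold, and the largest were Itgb7 (1.62), Spn, a leukocyte sialomucin (1.52), Cd24a (-1.31) and Rasgrp2, an activator of integrins through Rap1 (-0.85). Itgb7 in macrophages stood at 0.0868 and 0.110 CP10K and at 0.390, 0.435 and 0.395 CP10K. The shares of the 2 macrophage clusters differed between the groups, and their part in these macrophage differences was not tested. Jaml, a junctional molecule of leukocytes, was the only 1 of 31 past the threshold in dendritic cells (1.55). In NK/T cells 0 of 33 passed by limma, with 7 at an unadjusted p under 0.05, beside 971 of 8307 genes. Over all leukocytes 2 of 34 rose and 4 fell, beside 12.7% of all genes past the threshold, and over all cells 19 of 43 rose and 15 fell, beside 41.1%.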

How the data were processed

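Single-cell RNA was measured in 5 droplet libraries of the aortic arch, 2 labelled Apoe-/- and 3 labelled Oasl1-/-Apoe-/-, each from pooled mice. The submitters' processing notes name Cell Ranger 3.1.0, Seurat 4.0.3 and the mm10 build, and the study's methods name DoubletFinder, so no doublet caller was run again. The values deposited by the authors are natural logs of 1 plus the UMIs per 10000 UMIs of a cell (CP10K), and genes seen in very few cells of a library are listed at 0. Undoing the log gave whole UMIs for 100% of values (within 0.01). The libraries held 16959976 to 19813039 UMIs, and intervals on UMIs cover counting error only.

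Cells were clustered with Python 3.11.15, scikit-learn 1.9.0 and leidenalg 0.10.2 (2000 variable genes, 12 components, 20 neighbours, resolution 1, seed 1), which gave 27 clusters. A cluster was named from at least 3 markers of a type with a 2-fold higher level and a UMI in at least 10% of its cells, and no member was a marker. Sub-clusters used 6 components and resolution 0.5. Names were rebuilt here and may differ from those of the study.

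Mean CP10K per library and cell type was tested with limma 3.58.1 in R 4.3.3 (lmFit and eBayes with trend, without trend for differences of differences) on log2(mean CP10K + 0.05), which understates changes of low genes. Genes with a mean of at least 0.05 CP10K and types with at least 20 cells in every library entered, the library was the replicate, and p was adjusted by Benjamini-Hochberg over all genes tested, with a threshold of 0.05. The limma steps were tested on simulated data. Shares of cells were compared by exact permutation tests, two-sided as the doubled smaller tail, whose smallest possible p is 0.2.

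The text names all 10 members, Oasl1, the 2 genes with the highest Pearson correlation to each member over cell types, and, from the list of 49 other adhesion genes, at most 2 per direction and cell type with the largest differences past the threshold. Clusters are called by their leading genes. Some results that this rule covers are not reported here. The members and lists were chosen with earlier results of these data known. Alternatives were another pseudocount, no filter, limma-voom on recovered UMIs, the mean of the deposited log values, centred libraries, leaving out each library, a replicate block, clustering at resolution 0.5 and a gate on markers in each cell. Reweighted shares over sub-clusters and clusters, left-out endothelial sub-clusters and single macrophage clusters were added after seeing the data.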

Additional observations from a re-analysis of the deposited data

Results flagged for a closer look

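Some members had every library labelled Oasl1-/-Apoe-/- on one side of both Apoe-/- libraries in some cell types and on the opposite side in others. With 2 against 3 libraries such separation is common even where nothing differs, and its share over all genes was not counted. These differences between cell types were not tested, apart from those of endothelial cells against smooth muscle cells and macrophages given above. For Vcam1 the log2 difference (labelled Oasl1-/-Apoe-/- minus Apoe-/-) was 0.51 in smooth muscle cells and 1.72 in NK/T cells, against -0.52 in macrophages and -2.02 in dendritic cells. The last value is set against libraries listed at 0 and depends on the pseudocount. The value in NK/T cells depends on it too, since it rests on 47 UMIs. A Vcam1 UMI was seen in 1.74% and 0% of NK/T cells of the Apoe-/- libraries and in 2.87%, 1.10% and 2.89% of the others. Fibroblast markers in NK/T cells summed to 0.212 to 0.489 against 1.48 to 2.67 CP10K, with 4 of 8 higher without overlap. The part of these markers was not tested. For Pecam1 it was 0.21 in macrophages and 1.24 in NK/T cells, against -0.91 in dendritic cells. For F11r it was 0.14 in endothelial cells, 1.12 in macrophages and 1.20 in monocytes, against -0.83 in dendritic cells. Of these values, those of Vcam1 in smooth muscle cells and macrophages and of F11r in macrophages passed the limma test.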

How the results depend on the processing

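Of the counts of members past the threshold under the alternatives, 110 were within 1.5 times the count reported and 11 were not. The cause of the changes was not tested. The share of all genes past the threshold under each alternative is not reported here, so the counts below cannot be set beside it. In dendritic cells 1 member (Vcam1) passed with a pseudocount of 0.5 CP10K, with no filter and with the mean of the deposited log values. In monocytes 1 (Selplg) passed with the mean of the deposited log values and with a replicate block (0.77, limma adjusted p = 0.016). The replicate numbers pair no libraries in the labels and the block leaves 1 residual degree of freedom, and no other count of members changed under it by over 1.5 times. In endothelial cells 2 passed by limma-voom. In macrophages the gate on markers also gave 3, with Icam2 in place of Vcam1. In smooth muscle cells 3 passed with the gate on markers and 0 with equal cluster shares, in the Ccl12 and Ccl8 macrophage cluster alone 1, in the whole aorta 2 with equal cell type shares, and between endothelial cells and macrophages 2 with a pseudocount of 0.5 CP10K. Leaving out each library in turn gave 2 to 3 members in macrophages, 1 in smooth muscle cells, 2 over all leukocytes, 7 in the whole aorta and 0 in the other comparisons. Of the single values, 466 kept direction and side of the threshold. With direction kept, 12 passed only under the alternative and 12 lost their call. Another 16 turned direction, of which Itgb2 in the Ccl12 cluster and Selp over all cells by limma-voom also passed the threshold. Over all cells Icam1 went from 0.06 to -0.25 and Itga4 to -0.0050 with equal shares, Icam1 ranged from -0.0072 to 0.11 when a library was left out, and Selp was 0.31 by limma-voom and 2.29e-05 as a mean of log values. In macrophages Itgb2 was 0.036 with the gate, 0.47 in the Ccl12 cluster and 0.16 with equal shares, and Pecam1 was -0.026 with the gate and -0.20 in the Trem2 cluster. In endothelial cells Pecam1 was 0.067 without the sub-clusters that carried other markers and 0.10 with equal sub-cluster shares, and Vcam1 was -0.036 with the gate and -0.012 without those sub-clusters. The difference in the share of endothelial cells with a UMI went from 0.138 to -8.19 percentage points for Icam1 and from 0.412 to -1.43 for Selp after thinning. Clustering at resolution 0.5 left no cluster named monocyte, so it gave no value there. The 5 libraries limit the precision of every test.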
